A study of Mus musculus with 8 samples.

Results

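Cytosolic ribosomal protein genes encode the protein components of the ribosomes that translate nuclear messages. They were taken as every array probe whose platform gene symbol had the form of a large-subunit (Rpl, Rplp) or small-subunit (Rps, Rpsa) protein, and a probe was kept where its detection p-value was under 0.05 on at least 2 of the 8 arrays. Of 77 such probes for 60 genes, 68 probes for 55 genes passed, out of 14502 probes for 9915 genes that passed on the whole array. They comprised 43 probes for 34 large-subunit genes and 25 probes for 21 small-subunit genes, and 12 genes had more than 1 probe. The 9 probes that did not pass left Rpsa, Rpl6, Rpl17, Rplp2 and Rps23 with no probe to describe, and took 1 further probe each from Rplp0, Rpl23 and Rpl37. RefSeq lists 81 protein-coding symbols of this form, and those with no probe in the annotation used, among them Rpl11, Rps27a, Rpl10l and Rps4l, were not analysed here.

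The samples were E14TG2a cells, a mouse embryonic stem cell line, with 2 arrays in each of 4 groups. In the IDE2 group the cells were kept for all 11 days in 1 uM IDE2 (a synthetic inducer of definitive endoderm). In the IDE2+FGF2 group they had 1 uM IDE2 for 6 days and then 500 ng/ml of the growth factor FGF2 for 5 days. The IDE2+FGF10 group had the same 6 days and then 25 ng/ml FGF10 for 5 days, so the 2 growth factors were given at different doses. The ES group was the undifferentiated line, maintained in serum with medium conditioned by LIF-producing cells. The 3 differentiated groups shared a low-serum medium with N2 and B27 that the ES cells did not have, and no group was differentiated without IDE2. Medium, time and IDE2 therefore cannot be told apart in any comparison against ES. All groups come from 1 cell line, and the labels do not say that the 2 arrays of a group were separate cultures, so p-values measure the spread between these arrays, which may be technical.

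A ribosome has a small subunit, which reads the message, and a large subunit, which joins amino acids. Each ribosomal protein is present in a single copy per ribosome apart from the stalk proteins, and the genes are known for being expressed together in nearly all cells. Their messages carry a pyrimidine-rich tract at the very start (the 5′ TOP tract), through which mTOR signalling and the binding protein Larp1 control their translation more than their amount. Ribosome assembly in the nucleolus also needs ribosomal RNA from RNA polymerase I and a large set of assembly factors, many of which are targets of Myc. Ribosomal protein genes have many near-identical processed pseudogenes in the mouse genome, and the probe sequences were not used here, so which of these copies a probe reads is uncertain.

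Promoter sequences are shown for Rpl35 and Rps10, examples of members with no call in any comparison that were picked after their values were seen, and for 6 members whose signal differed from ES in the results that follow. RefSeq windows (build GRCm38.p6) from 250 bases before to 50 after the annotated start were matched by symbol for 47 of the 55 genes. Each line gives 60 bases before the first-listed start and the first 15 bases of the transcript. Capitals mark CTTTC on the sense strand, the letters of a TOP-like tract, and CCGGAAG on either strand, the letters bound by ETS factors.
Rpl35, chr2:39005117-39005191, minus strand: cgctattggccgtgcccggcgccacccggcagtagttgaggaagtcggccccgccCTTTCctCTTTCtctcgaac
Rps10, chr17:27635230-27635304, minus strand: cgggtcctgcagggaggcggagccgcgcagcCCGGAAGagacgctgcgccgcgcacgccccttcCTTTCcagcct
Rps3, chr7:99483695-99483769, minus strand: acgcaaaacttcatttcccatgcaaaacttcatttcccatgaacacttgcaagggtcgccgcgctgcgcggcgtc
Rpl22, chr4:152325666-152325740, plus strand: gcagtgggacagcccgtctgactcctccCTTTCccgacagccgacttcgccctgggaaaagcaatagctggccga
Rplp0, chr5:115559407-115559481, plus strand: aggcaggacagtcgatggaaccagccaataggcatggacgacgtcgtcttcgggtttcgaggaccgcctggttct
Rps24, chr14:24490618-24490692, plus strand: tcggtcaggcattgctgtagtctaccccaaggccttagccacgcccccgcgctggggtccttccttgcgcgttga
Rpl3l, chr17:24727766-24727840, plus strand: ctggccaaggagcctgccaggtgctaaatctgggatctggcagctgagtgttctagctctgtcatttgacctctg
Rpl39l, chr16:10170168-10170242, plus strand: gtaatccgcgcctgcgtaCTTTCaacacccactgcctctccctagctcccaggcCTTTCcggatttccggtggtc

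CTTTC was found within 50 bases of the annotated start in 22 of 47 member windows (46.8%), and in 3403 of 27025 windows of all genes (12.6%). CCGGAAG was in 17 member windows (36.2%) and in 2465 of all windows (9.12%). ATGGCGG, the letters bound by YY1, searched on both strands, was in 7 member windows (14.9%) and in 1132 of all windows (4.19%). CCGGAAG can overlap its own complement, and CTTTC can share its end letter with CCGGAAG. Among the member genes with a call against ES, 6 of 13 windows held CTTTC and 2 held CCGGAAG, beside 16 and 15 of the 34 windows of genes without one. These counts are descriptions of the letters, and a window without them says nothing about the factors. Rpl35, Rps10, Rpl22 and the paralog Rpl39l have CTTTC in the stretch shown, and Rps3, Rplp0, Rps24 and Rpl3l do not.

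Before any comparison, 1 array stood apart: IDE2 replicate 2. Ribosomal protein probes took 5.17% of its summed raw signal, against 8.68% on IDE2 replicate 1 and 7.62 to 9.96% on the other 6 arrays. Results that involve IDE2 are therefore given with and without it, and leaving it out leaves IDE2 with 1 array whose spread is taken to be that of the other groups. A median of 39 to 43.5 beads per array lay behind the member probes, with a median standard error over beads of 3.76 to 4.56% of the signal. Of the 68 probes, 61 were detected on all 8 arrays, and 42 were among the 257 brightest (1%) on the array. Markers of pluripotent cells summed to 37200 to 129000 units on the differentiated arrays, lowest on IDE2 replicate 2, against 213000 and 229000 on the ES arrays. Markers of definitive endoderm summed to 16600 to 35100 on the differentiated arrays and to 2860 and 2880 on the ES arrays, and those of mesenchyme to 49200 to 73200 and to 2560 and 2650. All 10 pluripotency markers were detected on both arrays of every group. Of the 8 endoderm markers, 6, 5 and 4 were detected on both arrays in IDE2, IDE2+FGF2 and IDE2+FGF10, and 5 in ES. The endoderm sum therefore rose in the growth factor groups without more of its markers being detected. Of the 9 mesenchyme markers, 7, 7 and 8 were so detected, and 4 in ES. In bulk RNA such as this, fewer cells of a type and less RNA per cell cannot be told apart. The part of this shift in cell type, or of IDE2 replicate 2, in the results was not tested except where values without that array are given.

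Most ribosomal protein genes were not called different from ES in any differentiated group. In IDE2 against ES, 15 of 68 probes (22.1%) were called by limma at an adjusted p under 0.05, beside 44.4% of all probes tested: 2 were higher (background 22.6%) and 13 lower (background 21.9%). In IDE2+FGF2 against ES, 8 probes (11.8%) were called beside 33.0% of all probes, 2 higher (background 16.5%) and 6 lower (background 16.5%). In IDE2+FGF10 against ES, 10 probes (14.7%) were called beside 43.3% of all probes, 4 higher (background 21.2%) and 6 lower (background 22.1%). The all-probe split of that comparison, 3074 higher and 3212 lower, became 2197 and 4015 with median scaling in place of quantile normalization. In each comparison the share called was below that of the array as a whole, but not among dim probes. Of the 11 members of mean log2 intensity below 10, 54.5, 54.5 and 45.5% were called, all of them lower. Among other probes of that brightness, 44.8, 33.9 and 43.5% were called. The dim members called include Rpl39l, which passed the detection filter only through the ES arrays. For members of mean 10 to 15 the shares were 27.6, 6.9 and 17.2%, beside 43.8, 30.1 and 43.7% of other probes. The 3 comparisons share the ES arrays, so their lists of calls are not independent. An F test over the 4 groups called 11 probes of 10 genes (16.2%), beside 53.9% of all probes.

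The counts depended on single arrays. Without IDE2 replicate 2, 8 members were called in IDE2 against ES (37.2% of all probes), 12 in the IDE2+FGF2 group (40.1%) and 15 in the IDE2+FGF10 group (49.8%), and the F test called 13 (51.6%). All 8 of the first were among the 15 called with every array, and all 8 and all 10 calls of the other 2 comparisons were kept. Without IDE2 replicate 1, so with replicate 2 alone, 33 members (48.5%) were called in IDE2 against ES, beside 48.0% of all probes. Without ES replicate 1, 6 members were called in IDE2 (27.4% of all probes), 4 in the IDE2+FGF2 group (16.8%) and 3 in the IDE2+FGF10 group (27.7%). Without ES replicate 2 the counts were 6 (28.1% of all probes), 3 (17.5%) and 4 (28.3%). Without IDE2+FGF2 replicate 2 its comparison with ES had 3 calls (31.9% of all probes). The comparison of IDE2+FGF10 with ES had 4 calls without its replicate 1 (28.6%) and 3 without its replicate 2 (28.1%). The share of members was below that of all probes in each of these fits except the one without IDE2 replicate 1, where the 2 shares were about equal.

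On quantile-normalized values, the family as a whole moved little in the groups given a growth factor. The median log2 change over the 68 probes was -0.31 in IDE2, 0.09 with FGF2 after IDE2 and 0.07 with FGF10 after IDE2, each against ES, beside -0.01, -0.02 and -0.01 over all probes. Without IDE2 replicate 2 the IDE2 median was 0.03. The 2 subunits gave similar medians: -0.32, 0.10 and 0.12 for the large subunit, and -0.24, 0.09 and 0.06 for the small subunit. By array, the members' median distance from the ES mean was 0.03 and -0.67 in IDE2, 0.12 and 0.11 in IDE2+FGF2, 0.06 and 0.11 in IDE2+FGF10, and -0.04 and 0.04 in ES. Only IDE2 replicate 2 lay more than 0.2 from the ES mean. With median scaling the members' medians against ES were -0.61, 0.075 and 0.13, beside -0.06, -0.004 and -0.21 over all probes. In IDE2+FGF10 the members then stood 0.35 above all probes, and in IDE2+FGF2 0.08. Their share of the summed raw signal was 9.04 and 8.59% in IDE2+FGF2 and 9.71 and 9.96% in IDE2+FGF10, against 8.18 and 7.62% in ES.

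**Figure D1:**
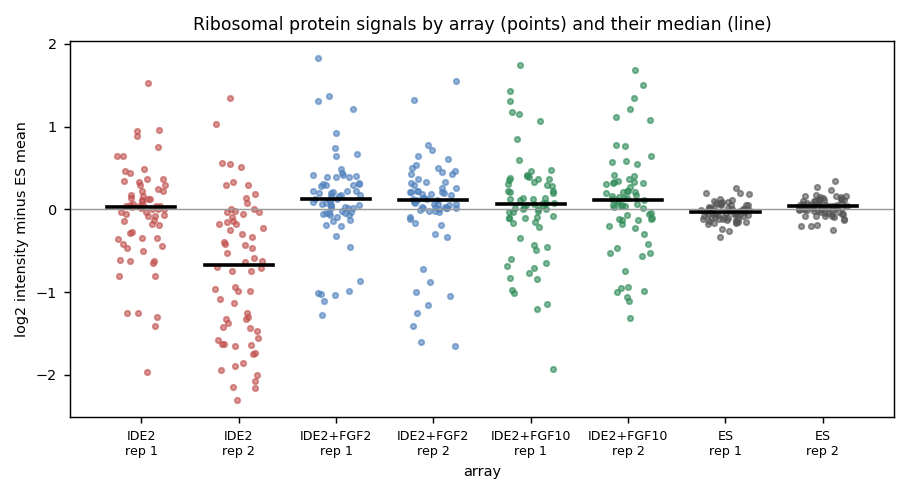
Distance of each of the 68 ribosomal protein probes from its ES mean (log2 intensity, y axis) on each array (x axis), with the median as a line and colours for the groups. The median is -0.67 on IDE2 replicate 2 and between -0.04 and 0.12 on the other arrays.

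The brightest members varied least. Of 28 probes with a mean log2 intensity of 15 or more, 1 was called against ES in IDE2 and 0 in either growth factor group, and other probes of that brightness were also rarely called (2, 0 and 2 of 30). Rplp1, an acidic stalk protein that recruits elongation factors, had a log2 intensity of 15.93 and 15.93 in IDE2, 16.02 and 15.98 in IDE2+FGF2, 16.02 and 15.98 in IDE2+FGF10, and 15.98 and 15.94 in ES. Its 8 values span 0.09, the narrowest range of any member. Both IDE2 values lay below all others, and the other groups share a value of 15.98. Rpl41, the smallest ribosomal protein, ranged from 15.83 to 16.02, and Rps12 from 15.74 to 15.94. Rps6, the substrate of S6 kinase, had 15.31 and 14.44 in IDE2, 15.23 and 15.08 in IDE2+FGF2, 15.11 and 14.94 in IDE2+FGF10, and 15.19 and 14.95 in ES. Only the second IDE2 value lay below the ES range by more than 0.1.

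These signals lie near the top of the scanner scale. The raw signal of Rplp1 was 60585 to 67727 units over the arrays, and the highest raw signal of any probe was 62751 to 71022. From 20 to 35 member probes had over 50% of the highest raw signal on 7 of the arrays, and 10 had on IDE2 replicate 2. The log2 values were also quantile normalized, which gives each array the same set of values. How far the scale or this step limits a difference among the brightest probes was not tested. The 95% interval of a change against ES had a median half-width of 0.60 for these 28 probes and 0.79 for the 29 probes of mean log2 intensity 10 to 15. For Rplp1 it ran from -0.62 to 0.55 in IDE2 and from -0.54 to 0.62 in both growth factor groups. For Rps6 it ran from -0.92 to 0.53 in IDE2, -0.64 to 0.81 in IDE2+FGF2 and -0.77 to 0.68 in IDE2+FGF10, so a missing call does not show equal levels.

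The other members listed for their roles also gave no call against ES, with exceptions described further on. Rpl3, which lies beside the peptidyl transferase centre, had 15.70 and 15.83 in IDE2, 15.49 and 15.33 in IDE2+FGF2, 15.58 and 15.58 in IDE2+FGF10, and 15.40 and 15.14 in ES. Both IDE2 and both IDE2+FGF10 values exceeded the ES values, by less than the fit could call (adjusted p = 0.16 and 0.39 in limma). Rpl5, which with Rpl11 carries the small ribosomal RNA of the large subunit and binds Mdm2, had 15.26 and 15.44 in IDE2, 15.04 and 15.02 in IDE2+FGF2, 14.83 and 15.001 in IDE2+FGF10, and 15.02 and 14.85 in ES. Rpl12, at the base of the stalk, ranged from 14.21 on IDE2 replicate 2 to 15.28. At the low end of the scale, the dimmer probes of Rpl37 (4.70 to 5.81) and Rpl27a (5.18 to 6.07) gave no call either.

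**Figure D2:**
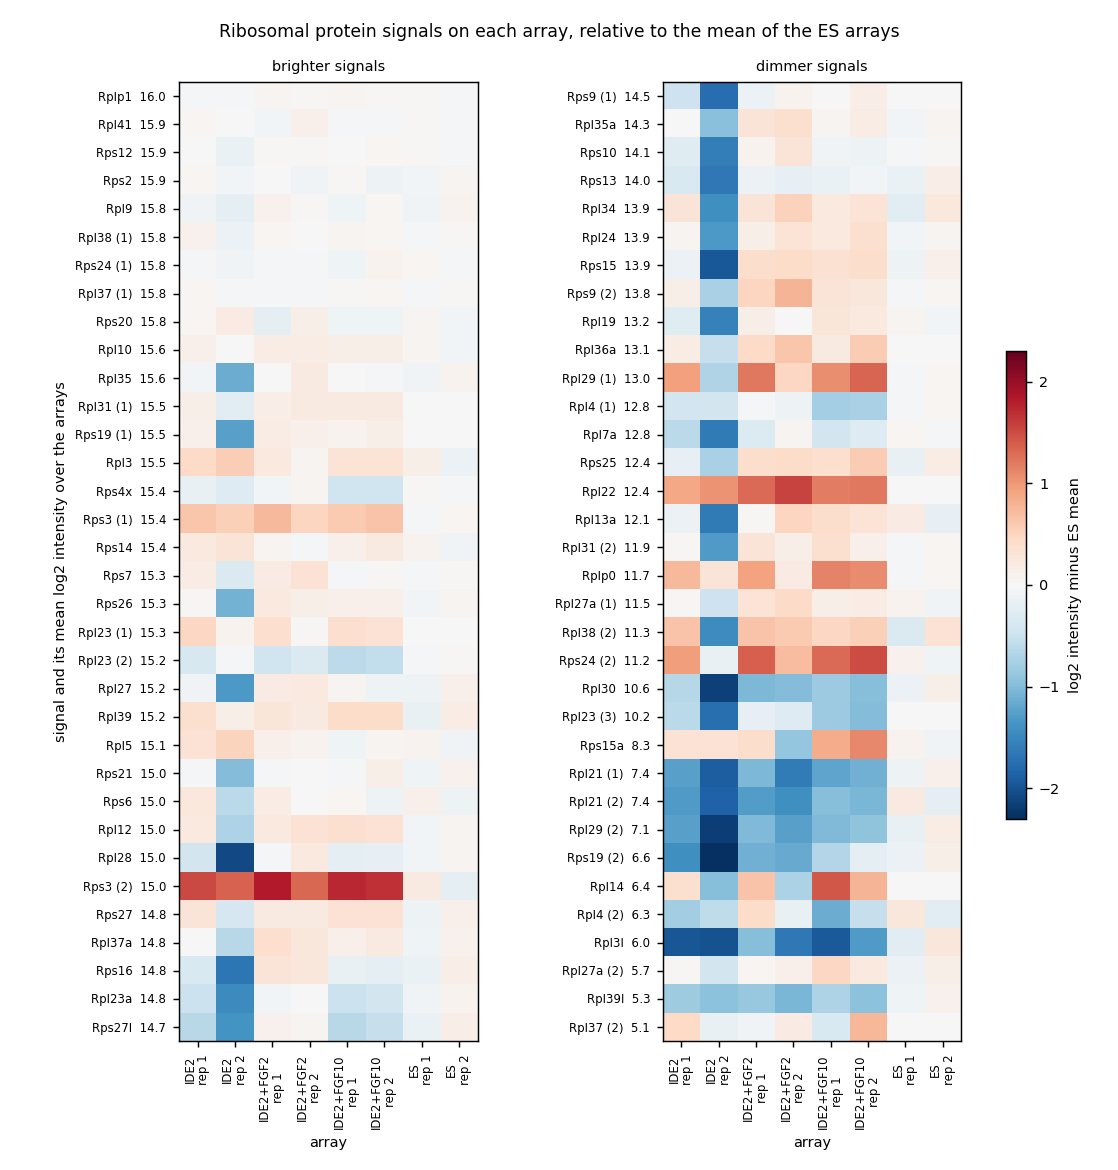
Log2 intensity of each ribosomal protein probe minus its ES mean (colour, red higher and blue lower), with arrays in columns and probes in rows ordered by mean log2 intensity, which stands beside the symbol; the number in brackets tells the probes of 1 gene apart. On IDE2 replicate 2, 5 of the 28 rows of mean 15 or more lie over 1 log2 unit below ES, against 0 on each other array; that array is also blue in most rows of mean 10 to 15, and Rps3 (2), Rpl22, Rpl21, Rpl29 (2) and Rpl3l differ from ES on all 6 differentiated arrays.

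Against ES, 7 of 68 probes (10.3%) were called in all 3 differentiated groups, beside 22.2% of all probes: Rps3 and Rpl22 were higher, and both Rpl21 probes, 1 Rpl29 probe, Rpl3l and Rpl39l were lower. Of these, Rpl39l passed the detection filter only through the ES arrays, where it is high. Rps3, a small-subunit protein at the entry of the message channel that also takes part in DNA repair, rose on its dimmer probe. That probe had 15.33 and 15.16 in IDE2, 15.64 and 15.13 in IDE2+FGF2, 15.54 and 15.49 in IDE2+FGF10, and 14.00 and 13.61 in ES. All 6 differentiated arrays lay more than 1 log2 unit above both ES arrays. The log2 changes were 1.44 ± 0.30 in IDE2 (SE; adjusted p = 0.003 in limma), 1.58 ± 0.30 in IDE2+FGF2 (0.0024) and 1.71 ± 0.30 in IDE2+FGF10 (0.001). These calls held under all 18 alternatives run for that probe, and without IDE2 replicate 2 the IDE2 change was 1.53. The brighter Rps3 probe had 15.40 to 15.65 in the differentiated groups and 14.87 and 14.94 in ES, changes of 0.60, 0.62 and 0.62 that were not called with all arrays (adjusted p = 0.095, 0.1 and 0.085 in limma). Without IDE2 replicate 2 the last 2 of these were called (0.049 and 0.04).

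Rpl22, an RNA-binding large-subunit protein with a role in T-cell development, rose in each group. It had 12.40 and 12.55 in IDE2, 12.82 and 13.07 in IDE2+FGF2, 12.69 and 12.73 in IDE2+FGF10, and 11.53 and 11.50 in ES. The groups do not overlap with ES, and the 2 ES arrays lie within 0.1 of each other. The log2 changes were 0.96 ± 0.27 (adjusted p = 0.014 in limma), 1.43 ± 0.27 (0.0024) and 1.2 ± 0.27 (0.0045). The calls in the growth factor groups held under all 19 alternatives, and the IDE2 call was lost without either ES array and with median scaling, with log2 changes of 0.66 to 1.04 over the alternatives. Its paralog Rpl22l1, which Rpl22 represses in mouse cells, had 8.51 and 7.16 in IDE2, 9.42 and 9.06 in IDE2+FGF2, 8.38 and 8.44 in IDE2+FGF10, and 8.42 and 8.53 in ES, and gave no call against ES with all arrays.

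Rplp0, the core of the stalk and a common reference gene in quantitative PCR, rose in IDE2+FGF10. It had 11.87 and 11.40 in IDE2, 12.04 and 11.30 in IDE2+FGF2, 12.26 and 12.20 in IDE2+FGF10, and 11.07 and 11.16 in ES. Every differentiated array lay above both ES arrays, and the replicates of IDE2+FGF2 were farther apart. The change of 1.12 ± 0.32 in IDE2+FGF10 was called (adjusted p = 0.017 in limma). Those of 0.52 and 0.56 in IDE2 and IDE2+FGF2 were not (adjusted p = 0.21 and 0.22 in limma). The call in IDE2+FGF10 was lost without any 1 of its own or of the ES arrays and with median scaling (changes of 0.80 to 1.16). A second Rplp0 probe was detected on no array.

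Rps24, a small-subunit protein needed for ribosomal RNA processing, differed between its probes. The dimmer had 11.49 and 10.36 in IDE2, 11.90 and 11.24 in IDE2+FGF2, 11.84 and 12.04 in IDE2+FGF10, and 10.63 and 10.43 in ES. IDE2+FGF10 and IDE2+FGF2 lay above ES, and IDE2 overlapped with it. The change was 1.41 ± 0.39 in IDE2+FGF10 (adjusted p = 0.013 in limma), a call lost without either ES array or IDE2+FGF10 replicate 2. In IDE2+FGF2 the change of 1.04 ± 0.39 was not called (0.06), but it was without IDE2 replicate 2 (0.021). The brighter Rps24 probe stayed between 15.72 and 15.90 on all 8 arrays.

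**Figure D3:**
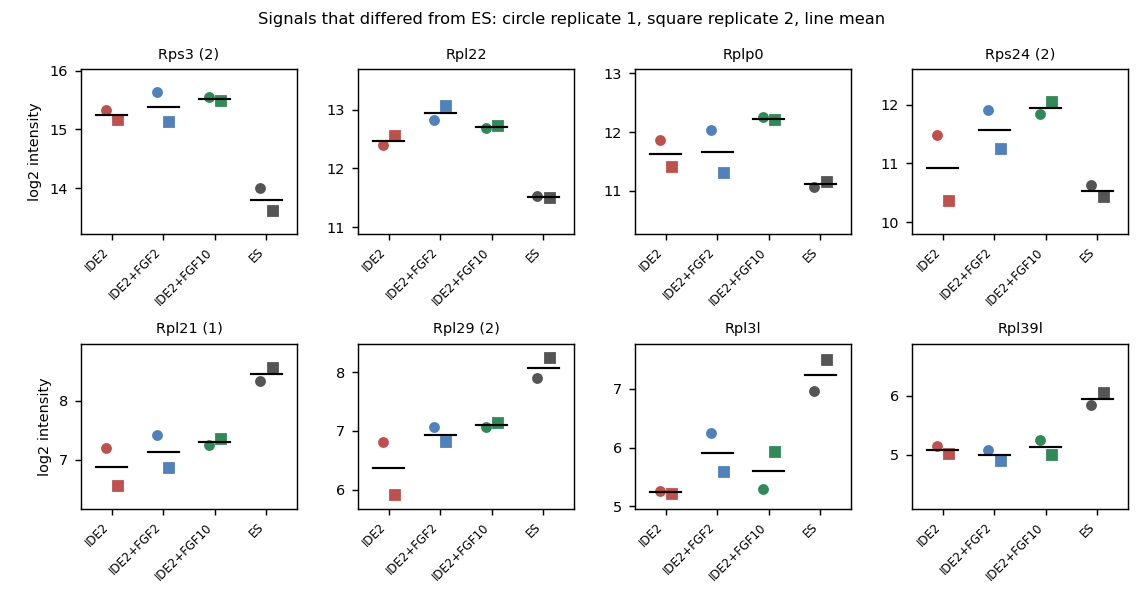
Log2 intensity (y axis, the same span in each panel) of 8 ribosomal protein probes in IDE2, IDE2+FGF2, IDE2+FGF10 and ES (x axis); circles are replicate 1, squares replicate 2 and lines group means. Rps3 (2), Rpl22, Rplp0 and Rps24 (2) have their lowest group mean in ES, and Rpl21 (1), Rpl29 (2), Rpl3l and Rpl39l their highest.

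The probes that fell in all 3 groups were dim ones. Both Rpl21 probes fell together: the brighter had 7.20 and 6.56 in IDE2, 7.42 and 6.85 in IDE2+FGF2, 7.25 and 7.35 in IDE2+FGF10, and 8.35 and 8.57 in ES. All 6 differentiated values are lower than both ES values. Its log2 changes were -1.58 ± 0.33 (adjusted p = 0.0028 in limma), -1.32 ± 0.33 (0.0098) and -1.16 ± 0.33 (0.014), and those of the second probe -1.58, -1.34 and -1.02. The IDE2 calls of both probes held under every alternative and were -1.25 and -1.30 without IDE2 replicate 2. The calls in IDE2+FGF10 were lost without either of its arrays or ES replicate 1, and for the brighter probe also without ES replicate 2. In IDE2+FGF2 the brighter probe's call was lost without IDE2+FGF2 replicate 2 or ES replicate 2, and the second probe's without ES replicate 1.

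Rpl3l, a paralog of Rpl3 known from striated muscle, fell to near background. It had 5.26 and 5.22 in IDE2, 6.24 and 5.58 in IDE2+FGF2, 5.30 and 5.92 in IDE2+FGF10, and 6.96 and 7.49 in ES. It was detected on 0 IDE2 arrays, 2 IDE2+FGF2 arrays, 1 IDE2+FGF10 array and both ES arrays. Because no IDE2 array measured it, its fold is a bound there: at least 3.5-fold lower in IDE2 (adjusted p = 0.001 in limma), where the bound sets the ES mean against the lowest signal above background. The changes in IDE2+FGF2 and IDE2+FGF10 were -1.32 ± 0.35 (0.014) and -1.62 ± 0.35 (0.0033). The IDE2+FGF2 call was lost without IDE2+FGF2 replicate 2, without ES replicate 2, and without replicate 2 of both IDE2 and IDE2+FGF2, while the other 2 held under all 18 alternatives.

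Rpl39l, a paralog of the exit-tunnel protein Rpl39 known from male germ cells, was detected on none of the 6 differentiated arrays and on both ES arrays. It therefore passed the detection filter only through ES, and its lower calls are not independent of that filter. It had 5.14 and 5.01 in IDE2, 5.08 and 4.90 in IDE2+FGF2, 5.24 and 5.00 in IDE2+FGF10, and 5.85 and 6.05 in ES. It was at least 1.44-fold lower in IDE2 (adjusted p = 0.024 in limma), at least 1.42-fold in IDE2+FGF2 (0.02) and at least 1.14-fold in IDE2+FGF10 (0.031). All 3 calls were lost without either ES array, without background correction and with the authors' second deposited table. The IDE2 call was also lost with array weights, and the IDE2+FGF2 call without IDE2+FGF2 replicate 2. The IDE2+FGF10 call was also lost without either IDE2+FGF10 array and with median scaling. Rpl39 itself had 15.07 to 15.35 in the differentiated groups, against 14.76 and 15.11 in ES, and was not called.

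For 3 genes a dim probe fell while a bright probe of the same gene was not called. The dimmer Rpl29 probe had 6.82 and 5.91 in IDE2, 7.06 and 6.82 in IDE2+FGF2, 7.06 and 7.14 in IDE2+FGF10, and 7.91 and 8.24 in ES. All differentiated arrays were lower, with changes of -1.71 ± 0.34 (adjusted p = 0.0022 in limma), -1.13 ± 0.34 (0.025) and -0.97 ± 0.34 (0.038). The last 2 calls were lost without any 1 array of either group compared, and the first held under all 18 alternatives. The brighter Rpl29 probe went the other way in the growth factor groups: it had 13.44 and 11.80 in IDE2, 13.70 and 12.96 in IDE2+FGF2, 13.56 and 13.83 in IDE2+FGF10, and 12.44 and 12.54 in ES. With all arrays its change of 1.21 ± 0.47 in IDE2+FGF10 was not called (0.059), and without IDE2 replicate 2 it was (0.012), so that the 2 Rpl29 probes were then called in opposite directions. Rpl29 is a small large-subunit protein also known to bind heparan sulfate at the cell surface.

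Rps19, a small-subunit assembly protein whose mutation causes Diamond-Blackfan anaemia in humans, showed a similar split. Its dimmer probe had 6.08 and 5.18 in IDE2, 6.38 and 6.33 in IDE2+FGF2, 6.80 and 7.26 in IDE2+FGF10, and 7.34 and 7.63 in ES. The order of the group means ran from IDE2 through IDE2+FGF2 and IDE2+FGF10 to ES, and IDE2+FGF10 did not differ from ES beyond the error (-0.45 ± 0.35, adjusted p = 0.31 in limma). The changes were -1.86 ± 0.35 in IDE2 (0.0015; -1.41 without IDE2 replicate 2) and -1.13 ± 0.35 in IDE2+FGF2 (0.027). The IDE2+FGF2 call was lost without any 1 array of IDE2+FGF2 or ES and with median scaling. The brighter Rps19 probe had 15.72 and 14.34 in IDE2 and between 15.58 and 15.77 on the other 6 arrays. Its change in IDE2 was -0.56 ± 0.39 (0.27).

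Rpl23, which binds Mdm2, had 3 probes that passed. The dimmest had 10.15 and 9.03 in IDE2, 10.58 and 10.47 in IDE2+FGF2, 9.93 and 9.77 in IDE2+FGF10, and 10.77 and 10.77 in ES. Its fall of -1.18 ± 0.36 in IDE2 was called (adjusted p = 0.02 in limma) and was -0.63 (0.083) without IDE2 replicate 2. The 2 brighter Rpl23 probes changed by 0.28 and -0.19 in IDE2. Among the 12 genes with several probes, changes against ES had opposite signs for 3 genes in IDE2, 7 genes in IDE2+FGF2 and 4 genes in the IDE2+FGF10 group. No gene had calls in opposite directions with all 8 arrays. Both Rpl4 probes had a lower level in IDE2+FGF10: the brighter probe of this exit-tunnel protein had 12.38 and 12.40 there, against 13.10 and 13.20 in ES (-0.76 ± 0.27, adjusted p = 0.038 in limma), and the dimmer had a change of -0.84 (0.068). The Rpl4 call was lost without any 1 array of IDE2+FGF10 or ES and with the replicate number as a block.

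In IDE2, 8 further probes were called lower than ES, and 7 of these calls depended on IDE2 replicate 2. Of these, the dimmest Rpl23 probe, Rpl23a, Rpl28, Rpl30, Rpl7a, the brighter Rps9 probe and Rps27l lost the call without that array, and also without either ES array. The dimmer Rps19 probe kept it. The Rps9 and Rpl28 calls were lost under 10 and 12 of 19 alternatives. The dimmer Rps9 probe changed by -0.31 in IDE2 and 0.63 in IDE2+FGF2, and neither was called (adjusted p = 0.47 and 0.17 in limma). Rpl30, which also binds its own transcript in yeast, had 10.79 and 9.29 in IDE2, 10.41 and 10.43 in IDE2+FGF2, 10.60 and 10.46 in IDE2+FGF10, and 11.31 and 11.57 in ES. All 6 differentiated values were below ES, and the change in IDE2 was -1.4 ± 0.42 (adjusted p = 0.019 in limma). Without IDE2 replicate 2 it was -0.65 (0.085) in IDE2, while Rpl30 was then called lower in IDE2+FGF2 (-1.02, 0.0085) and IDE2+FGF10 (-0.91, 0.01). Rps27l, a paralog of Rps27 and a p53 target, had 14.43 and 13.68 in IDE2, 15.16 and 15.11 in IDE2+FGF2, 14.41 and 14.52 in IDE2+FGF10, and 14.90 and 15.21 in ES. Its change in IDE2 was -1.0 ± 0.32 (0.024), and -0.63 (0.099) without IDE2 replicate 2. Rpl28 had 14.92 and 13.26 in IDE2, against 15.28 and 15.40 in ES, and its change of -1.25 was -0.42 (0.23) without that array.

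The 2 IDE2 arrays differed in the ribosomal protein genes more than other replicates did. On replicate 2, 59 of 68 probes were lower than on replicate 1, with a median difference of -0.64, and 22 differed by more than 1 log2 unit. The median differences between replicates were -0.03 in IDE2+FGF2, 0.03 in IDE2+FGF10 and 0.07 in ES, with 2, 1 and 0 probes beyond 1 log2 unit. Over all probes tested the IDE2 median was 0.02, and 16% of them differed by more than 1 log2 unit beside 32.4% of the members. The difference was widest in the middle of the scale: -1.11 for the 29 probes of mean 10 to 15, -0.56 for the 11 below 10 and -0.15 for the 28 at 15 or more. The lowest were the dimmer Rpl38 probe (9.66 on replicate 2 and 11.74 on replicate 1), Rps15 (11.97 and 13.78), Rpl34 (12.49 and 14.20) and Rpl28. The 8 probes that were higher on replicate 2 were both Rpl4 probes, 1 Rpl23 probe, Rpl3, Rpl5, Rpl22, Rps14 and Rps20, by at most 0.33 log2 units. IDE2 replicate 2 was the lowest of the 8 arrays for 45 members.

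**Figure D4:**
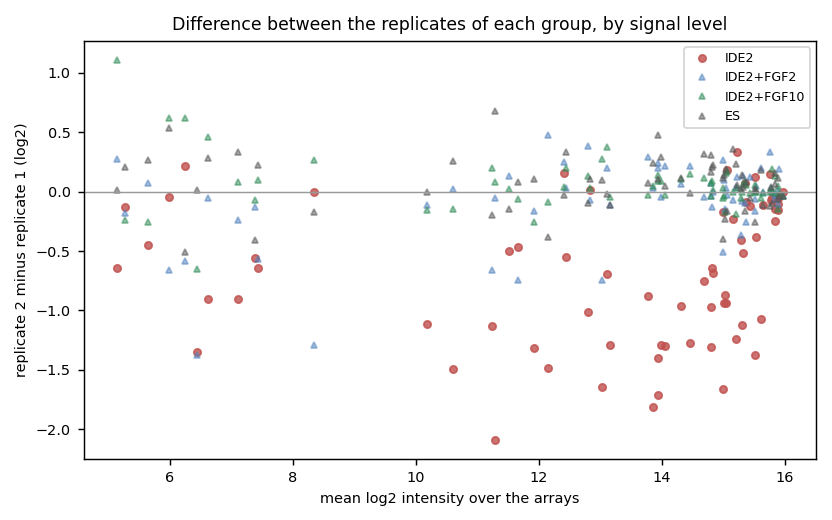
Replicate 2 minus replicate 1 (log2, y axis) for each ribosomal protein probe against its mean log2 intensity (x axis), with red circles for IDE2 and triangles for IDE2+FGF2, IDE2+FGF10 and ES. The IDE2 points reach -2.09 and have a median of -1.11 between 10 and 15, while medians of the other groups there lie between 0.02 and 0.10.

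Some other gene lists were also lower on IDE2 replicate 2 than on replicate 1, and some were higher. The mitochondrial ribosomal proteins had a median difference of -1.04 over 95 probes, the RNA polymerase I machinery -0.51 over 18 and the ribosomal protein paralogs -0.20 over 7, and Fau, a ribosomal protein fused to a ubiquitin-like domain, had -1.56. Translation initiation factors had 0.58, other messages with a TOP tract 0.38, ribosome biogenesis factors 0.07 and regulators of ribosome production 0.03. Summed pluripotency marker signal was 37200 on replicate 2 and 78600 on replicate 1. The part of RNA quality or cell composition in this difference was not tested.

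Between the differentiated groups almost no ribosomal protein probe was called. In IDE2+FGF2 against IDE2, limma called 0 of 68 beside 6.68% of all probes. The median change was 0.49, and 0.08 without IDE2 replicate 2. At an unadjusted p under 0.05 in limma there were 17 of the 68 members. Other probes under it were 3014 of 11446 with a mean below 10, 742 of 2958 at 10 to 15 and 3 of 30 at 15 or more. In IDE2+FGF10 against IDE2, the dimmer Rps19 probe was called alone (1.4 ± 0.35, adjusted p = 0.027 in limma), beside 12.5% of all probes, and it lost the call without IDE2 replicate 2 (0.95, 0.15) and under 12 of 18 alternatives in all. The median change there was 0.49, and 0.07 without that array. With IDE2 replicate 2 as the one IDE2 array, 33 members (48.5%) were called higher in IDE2+FGF2, beside 11.3% of all probes, and 32 (47.1%) in IDE2+FGF10, beside 14.3%. In IDE2+FGF10 against IDE2+FGF2, 0 were called beside 6.63% of all probes, and the median change was 0. There, 4 members had an unadjusted p under 0.05 in limma. Other probes under it were 3023 of 11446 with a mean below 10, 655 of 2958 at 10 to 15 and 2 of 30 at 15 or more.

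Genes for ribosome assembly were mostly lower than in ES. Of 64 probes for ribosome biogenesis factors, 38 were called lower than ES in IDE2, 38 in the IDE2+FGF2 group and 40 in the IDE2+FGF10 group, with 1, 0 and 0 higher, and median log2 changes of -1.03, -1.15 and -1.34. Those lower made up 59.4, 59.4 and 62.5% of the list, beside 21.9, 16.5 and 22.1% of all probes. Without IDE2 replicate 2, 35, 42 and 44 were lower. The share of all probes called moved in that fit too, as given with the member counts, so its shift is no result about this list alone. Rrp9, a component of the small nucleolar RNP that processes ribosomal RNA, averaged 9.21 in IDE2, against 12.28 in ES (-3.06 ± 0.34, adjusted p = 6.2e-05 in limma). Heatr1, needed for transcription and processing of ribosomal RNA, averaged 9.0 in IDE2+FGF10, against 12.37 in ES (-3.37 ± 0.37, 5.2e-05). A brighter Heatr1 probe changed less, with -0.43 (not called), -1.38 and -1.47 in the 3 groups. The nucleolar protein nucleolin (Ncl) averaged 8.51 in IDE2+FGF10, against 11.55 in ES (-3.04 ± 0.29, 2.5e-05). It was also lower in IDE2+FGF10 than in IDE2 (-1.82 ± 0.29, 0.0084) and lower in IDE2+FGF2 than in IDE2 (-1.46 ± 0.29, 0.019).

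The RNA polymerase I list, which makes ribosomal RNA, had 8, 6 and 5 of 18 probes lower than ES in IDE2, IDE2+FGF2 and IDE2+FGF10 (44.4, 33.3 and 27.8%, beside 21.9, 16.5 and 22.1% of all probes), and 0, 0 and 2 higher. Ubtf, its upstream binding factor, had log2 changes of -2.62, -2.59 and -2.52, each ± 0.33, and Polr1c rose in IDE2+FGF10 (0.88). The dimmest Polr1d probe also rose there (1.62), while its 2 brighter probes had changes of 0.02 and 0.77 that were not called. Mitochondrial ribosomal proteins had 31, 21 and 21 of 95 probes lower (32.6, 22.1 and 22.1%) and 2, 1 and 4 higher. The share lower in IDE2+FGF10 equals that of all probes, 22.1%. Mrps12 had changes of -3.48, -1.94 and -2.94. Without IDE2 replicate 2 those lower were 21, 31 and 26. In that fit the share of all probes called moved too. The ribosomal protein paralogs are a list of 7 probes that includes the members Rpl3l, Rpl39l and Rps27l described above. The list had 4 lower in each comparison (57.1%, beside 21.9, 16.5 and 22.1% of all probes). Rpl7l1, a paralog of Rpl7, fell by 1.56, 1.92 and 1.98 log2 units on its dimmer probe. Its brighter probe had changes of -0.61 (not called), -0.83 and -0.85.

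Lists of translation factors were mixed. Of 27 probes for other TOP messages, 6, 1 and 9 were higher than ES in IDE2, IDE2+FGF2 and IDE2+FGF10 (22.2, 3.70 and 33.3%, beside 22.6, 16.5 and 21.2% of all probes). Those lower were 2, 1 and 3 (7.41, 3.70 and 11.1%, beside 21.9, 16.5 and 22.1%). Those higher were 2, 4 and 9 without IDE2 replicate 2. Calls over all probes moved in that fit too. Hnrnpa1, an RNA-binding protein, rose in all 3 groups on its brighter probe (2.79, 1.93 and 2.3), and its dimmer probe had changes of 1.51, 0.84 (not called) and 1.75. Eef1d, an elongation factor subunit, fell by 2.13, 2.24 and 1.11 on its dimmer probe. Its brighter probe had changes of -0.57, -0.24 and -0.07, none of them called. Npm1, a nucleolar chaperone, fell by 1.26 in IDE2+FGF10 and had changes of -0.04 and -0.29 in IDE2 and IDE2+FGF2 that were not called.

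Of 34 probes for initiation factors, 8, 10 and 12 were lower (23.5, 29.4 and 35.3%, beside 21.9, 16.5 and 22.1% of all probes) and 2, 0 and 2 higher. Eif2s3x, a subunit of the factor that brings the initiator tRNA, was lower in each group (-1.16, -1.23 and -2.43). Among 27 probes for regulators, 9, 9 and 8 were lower (33.3, 33.3 and 29.6%, beside 21.9, 16.5 and 22.1% of all probes). Those higher were 6, 5 and 4 (22.2, 18.5 and 14.8%, beside 22.6, 16.5 and 21.2%). Myc was lower in each (-1.83, -1.84, and at least 3.82-fold lower in IDE2+FGF10, where neither array detected it), and so was Mtor (-1.70, -1.45 and -1.90). Mycl rose in each group (4.01, 1.82 and 3.37), as did Ddit4, an inhibitor of mTOR signalling (1.78, 3.07 and 4.0). Other mTOR inhibitors of the list went both ways. Deptor fell in IDE2 (-1.82) and IDE2+FGF10 (-1.93), Akt1s1 in IDE2 (-1.93) and 1 Sesn2 probe in IDE2+FGF2 (-1.92). Sesn3, detected on no ES array, was at least 3.01, 3.25 and 4.92-fold higher in the 3 groups. The activity of mTOR signalling was not tested. Each change named for these lists and not marked as not called had an adjusted p under 0.05 in limma. The lists were described by counts, and no difference between lists was tested.

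**Figure D5:**
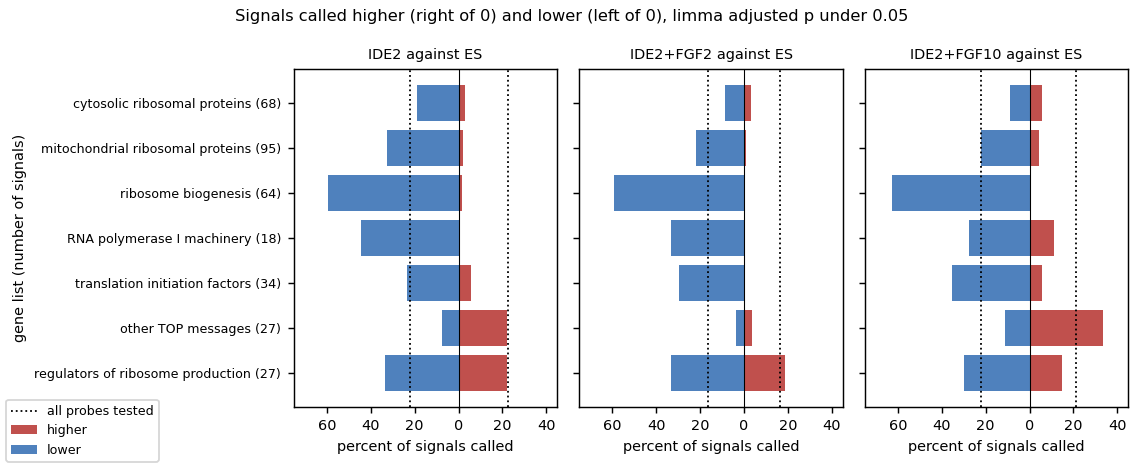
Share of the probes of 7 gene lists called higher (right of 0, red) or lower (left of 0, blue) than ES (x axis, percent of signals) in IDE2, IDE2+FGF2 and IDE2+FGF10, with the number of probes in brackets and dotted lines at the share of all probes called in that direction. Cytosolic ribosomal proteins lie inside the dotted lines in each comparison, with 13, 6 and 6 of 68 lower, and ribosome biogenesis factors lie beyond the line for lower calls, with 38, 38 and 40 of 64.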

How the data were processed

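RNA from 8 samples was measured on Illumina mouse BeadChips, 2 arrays in each of 4 groups. The deposited intensities are, per the file headers, mean signals over the beads of a probe, and their array medians differ, so no normalization was applied. BeadStudio is named in the submitters' processing notes, and its version is not given in the sources used here. Per the file headers, the deposited table also gives the bead count behind each signal, its standard error over beads, and a detection p-value against the control beads. The authors' second deposited table holds intensities of the same arrays with nearly equal distributions (medians 144.53 to 144.89, rank correlation 1 with the first); its normalization is not given in the sources used here, and it served as an alternative. No value column belonged to another sample (0 columns).

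Intensities were corrected with limma's neqc (normexp background from the detection p-values and an offset of 16) and then quantile normalized and put on the log2 scale. The 14502 of 25697 probes detected at p under 0.05 on 2 or more arrays were fitted with lmFit and eBayes (limma 3.58.1, R 4.3.3) over all 4 groups, with 4 residual degrees of freedom. Calls used a Benjamini-Hochberg adjusted p under 0.05 over all probes tested, for each of 6 comparisons and for an F test. The number of arrays limits the precision. The pipeline was tested on simulated data. Gene names came from the platform annotation, in which 23978 probes had a symbol and 1719 none.

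The members and all lists were chosen with earlier results of these data known. Named genes were called members with the largest changes whose replicates did not overlap (up to 8 in each direction), members set by role or as paralogs, the 3 highest and 3 lowest by mean level, and up to 3 changes in each direction from each other list. Examples outside this rule were chosen after their values were seen: Rps10, Rpl35, Rpl12, Rpl39, Rpl22l1, second probes of named genes, and the members named for the difference between the IDE2 arrays. The same replicate numbers did not pair the samples (correlations of -0.0416 to 0.00782, 0 of 6 pairs over 0.1). Alternatives covered background correction, scaling, filtering, the variance model, array weights, 1 probe per gene, the replicate block and left-out arrays. The promoter table is RefSeq on GRCm38.p6.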

Additional observations from a re-analysis of the deposited data

How the results depend on the processing

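No called change turned its direction under any alternative run, while the median change in IDE2 against ES, which has no test, was -0.31 with all arrays and 0.03 without IDE2 replicate 2. Where no count over all probes stands beside a count in this section, it does not tell a change of the members from one of the whole array. Array weights gave 22 members called in IDE2+FGF10 against ES, 0 in IDE2+FGF10 against IDE2 and 20 in the F test. Fits on only the arrays of the 2 groups compared gave 8 in IDE2 against ES, 20 in IDE2+FGF10 against ES and 0 in IDE2+FGF10 against IDE2. With 1 probe per gene, so 55 members, 4 were called in IDE2+FGF2 against ES, 6 in IDE2+FGF10 against ES, 0 in IDE2+FGF10 against IDE2 and 5 in the F test. Median scaling gave 3 in IDE2+FGF2 against IDE2, 3 in IDE2+FGF10 against IDE2, 2 in IDE2+FGF10 against IDE2+FGF2 and 22 in the F test. Over all probes it called 1046, 2107 and 1675 in these 3 comparisons, beside 969, 1820 and 961 in the main fit. Median scaling also moved the median of all probes to -0.21, -0.13 and -0.25 in IDE2+FGF10 against ES, IDE2 and IDE2+FGF2, and the members' medians relative to these were 0.35, 0.77 and 0.33. No background correction and the second deposited table each gave 1 in IDE2+FGF2 against IDE2 and 1 in IDE2+FGF10 against IDE2+FGF2. Over all probes these were 789 and 844 without background correction, and 787 and 844 with the second deposited table. No detection filter gave 0 in IDE2+FGF10 against IDE2. The replicate number as a block gave 2 in IDE2+FGF10 against IDE2 and 15, 9 and 11 in IDE2, IDE2+FGF2 and IDE2+FGF10, each against ES. The numbers do not pair the samples.

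Leaving out 1 array at a time gave 6 to 33 calls in IDE2 against ES, 3 to 12 in IDE2+FGF2 against ES and 3 to 15 in IDE2+FGF10 against ES. It gave 0 to 33 in IDE2+FGF2 against IDE2, 0 to 32 in IDE2+FGF10 against IDE2, 0 to 1 in IDE2+FGF10 against IDE2+FGF2 and 2 to 40 in the F test. The highest counts of those involving IDE2 and of the F test were without IDE2 replicate 1. The median change ranged from 0.078 to 0.782 in IDE2+FGF2 against IDE2 and from 0.072 to 0.797 in IDE2+FGF10 against IDE2. Without replicate 2 of both IDE2 and IDE2+FGF2, 20 were called in IDE2+FGF10 against ES, 0 against IDE2 (median 0.072), 2 against IDE2+FGF2 and 18 in the F test. The cause was not tested, except that fewer arrays and probes enter some of these fits. With 2 arrays per group, small differences may have been missed. Whether the top of the scale limits differences among bright signals was not tested.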
